A study of Mus musculus with 8 samples.

Results

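The cyclins D and E and the cyclin-dependent kinase (CDK) inhibitors were followed in mouse embryonic fibroblasts (MEFs) treated with retinoic acid (RA). The genes were the rows of the deposited expression table whose symbol is Cdkn1a, Cdkn1b, Cdkn1c, Cdkn2c, Ccnd1, Ccnd2, Ccnd3, Ccne1 or Ccne2. All 9 symbols were found, each once, among 22200 genes. The 8 libraries came from immortalised MEFs on a C57BL/6 background: 3 untreated libraries, collected at 12 h, 3 collected after 12 h with RA and 2 after 72 h with RA. Every library carries the genotype label TAF4-/-, the untreated ones included, so TAF4, one of the proteins of the TFIID complex at core promoters, is the same in all groups by label and no TAF4-expressing control entered the comparisons. The study's methods describe the null MEFs as a line made from Taf4 lox/- embryos by Cre deletion of the floxed allele. They name a single derived line, while the study's discussion mentions 2 independent null lines. The sample titles also carry the tag cl1, which resembles the name the study gives to its TAF4-expressing line; the genotype label was followed. No vehicle is named for the untreated cells. No untreated library at 72 h is among the samples, so RA and the longer culture cannot be told apart at that time.

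Progress from G1 into S phase is driven by D-type cyclins with CDK4 or CDK6 and then by E-type cyclins with CDK2, which together phosphorylate the retinoblastoma protein and release E2F transcription factors. The Cip/Kip proteins p21, p27 and p57, products of Cdkn1a, Cdkn1b and Cdkn1c, inhibit CDK2 complexes and also bind cyclin D complexes, while the INK4 protein p18, product of Cdkn2c, binds CDK4 and CDK6 directly. RA acts through nuclear RA receptors bound to DNA, and in several cell types it slows the cycle at G1. In its TAF4-null MEFs, however, the study reported no significant change with RA in cell counts or BrdU incorporation. It also reported no significant arrest between G1 and S phase by FACS.

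The members lie on 4 mouse chromosomes. In the assembly of the files, mm9 (NCBIM37), with GENCODE vM1 models, Cdkn1a spans chromosome 17 from 29227924 to 29237667 on the plus strand, Cdkn1b chromosome 6 from 134870419 to 134875531 (plus), Cdkn1c chromosome 7 from 150644255 to 150646955 (minus) and Cdkn2c chromosome 4 from 109333481 to 109339794 (minus). Ccnd1 spans chromosome 7 from 152115836 to 152125774 (minus), Ccnd2 chromosome 6 from 127075797 to 127101066 (minus) and Ccnd3 chromosome 17 from 47642000 to 47736632 (plus). Ccne1 spans chromosome 7 from 38883003 to 38892553 (minus) and Ccne2 chromosome 4 from 11118498 to 11131926 (plus). By the study's methods, which differ from the labels on the type of library, each value is a sum over the gene locus. For 4 cyclin genes the span overlaps a gene on the opposite strand: Ccnd1 with Oraov1 over 818 bases, Ccnd2 with 9330179D12Rik over 1660, Ccnd3 with Bysl over 353 and Ccne2 with Ints8 over 5622. Whether reads were counted by strand is not given in the sources used here, so reads in these stretches are not assigned with certainty.

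Promoter sequence is shown for the inhibitors, since a Cip/Kip gene carried the one change of 2-fold or more described below. RefSeq promoters were matched for 5 of the 9 members. The 250 bases before the start site are printed 5′ to 3′ on the gene's strand, with coordinates of GRCm38.p6, a later assembly than that of the table. Capitals mark every match, on either strand, to the 6 motifs named in the next paragraph.
Cdkn1a, first start (chr17:29090729-29090978, plus): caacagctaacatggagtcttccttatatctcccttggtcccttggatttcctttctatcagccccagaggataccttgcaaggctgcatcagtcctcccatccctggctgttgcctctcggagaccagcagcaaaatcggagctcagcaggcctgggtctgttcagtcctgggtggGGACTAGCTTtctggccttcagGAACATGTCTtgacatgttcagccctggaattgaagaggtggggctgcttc
Cdkn1a, second start (chr17:29093519-29093768, plus): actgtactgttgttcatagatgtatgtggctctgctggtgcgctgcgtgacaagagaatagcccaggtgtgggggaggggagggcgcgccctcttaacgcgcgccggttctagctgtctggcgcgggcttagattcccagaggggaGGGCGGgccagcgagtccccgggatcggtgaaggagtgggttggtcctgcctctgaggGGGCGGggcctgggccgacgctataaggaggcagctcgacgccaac
Cdkn1b (chr6:134920151-134920400, plus): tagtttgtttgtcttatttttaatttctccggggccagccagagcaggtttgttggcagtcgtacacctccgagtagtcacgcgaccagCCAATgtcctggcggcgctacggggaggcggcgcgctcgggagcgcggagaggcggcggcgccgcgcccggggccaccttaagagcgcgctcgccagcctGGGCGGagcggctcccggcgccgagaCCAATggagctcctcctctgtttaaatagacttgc
Cdkn2c, GC-rich start (chr4:109666757-109667006, minus): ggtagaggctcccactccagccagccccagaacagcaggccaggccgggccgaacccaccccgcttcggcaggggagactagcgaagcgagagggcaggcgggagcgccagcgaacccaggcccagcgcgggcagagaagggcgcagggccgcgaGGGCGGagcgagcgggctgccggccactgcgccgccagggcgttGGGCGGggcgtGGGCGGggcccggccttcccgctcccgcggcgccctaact

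Of the 5 members searched, Cdkn1a was the one with matches to the p53 half-site consensus, 2 of them in the first window, 73 and 51 bases before the start, and 7.13% of the 32851 promoter windows of this length hold at least 1. Its second window held 2 GC boxes (GGGCGG), 104 and 46 bases before the start, a motif found in 32.7% of windows. Cdkn1b held 2 CCAAT boxes (spelled CCAAT), 161 and 35 bases before the start, and 1 GC box at 61, with CCAAT boxes in 33.8% of all windows. Cdkn2c held 3 GC boxes in the window printed, and a half-site for the RA receptor lay 180 bases before its other start (chr4:109665373-109665622). This half-site was spelled AGGTCA in its consensus form. The search also accepted the spelling GGGTCA, the further spelling AGTTCA and the remaining spelling GGTTCA, and 38.6% of windows hold at least 1 of them. Ccnd3 held 2, at 111 and 97 bases before its first start, and neither Cdkn1a window held any. GC boxes were also in both Ccnd3 windows and in that of Ccne1, and a CCAAT box in the second Ccnd3 window. The TATA box (TATAAA), in 12.4% of windows, was in none of the 8 member windows searched. Nor was an E2F site, which was searched as TTTCCCGC and in the alternative spelling TTTGGCGC and is in 1.30% of windows. These are matches of letters within a short window and no measure of binding.

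Levels are given as normalised reads, quantile normalised by the authors across the 8 libraries, which removed the depth of each library, and the depth is therefore unknown. Changes are differences of log2(value + 1) from a limma model with its standard error (SE), and a call required both an adjusted p under 0.05 and a difference of 2-fold or more. Low genes change a little less on this scale than in reads. In these bulk cultures a lower value cannot distinguish fewer expressing cells from less RNA per cell. Fibroblast identity was checked first: 9 of 12 fibroblast markers had a mean of at least 10 normalised reads, while Thy1, Dcn and Lum stayed between 1 and 8.00 in every library. The summed fibroblast markers ranged from 237495 to 258245 in untreated cells, 238660 to 249269 at 12 h of RA and 216921 to 222789 at 72 h. The 72 h sums lay below those of the other groups, and the part of this in the 72 h results was not tested. Single markers went both ways: of the 9 tested at 72 h against untreated cells, 2 passed the adjusted p higher and 3 lower. Over all genes tested 6.08% passed higher and 5.41% lower. Of the markers of other lineages, 2 of 6 for leukocytes, 3 of 6 for endothelium and 1 of 6 for epithelium reached a mean of 10, and none had a value above 33.0. Taf4a, the gene named by the genotype label, had 984 to 1449 normalised reads in the 8 libraries; the deleted part of the gene is not given, so this level does not check the label. A single axis held 50.1% of the variance within groups, and untreated replicate 3 (score -0.62) and untreated replicate 2 (0.50) stood farthest apart on it.

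**Figure D1:**
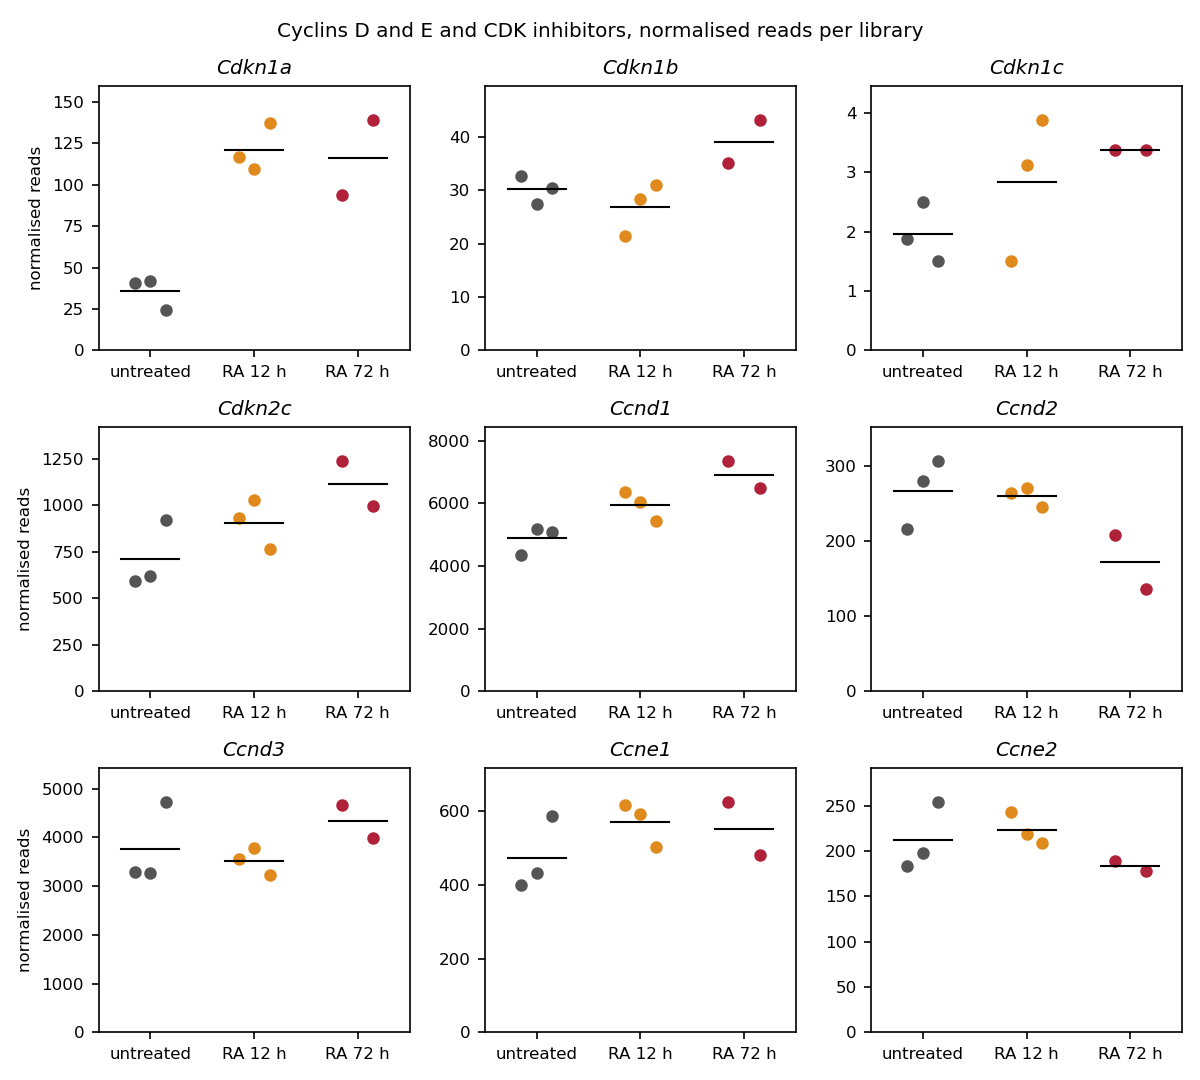
Normalised reads (vertical axis, linear from 0, a scale per gene) of the 9 genes in each library, by group (horizontal axis); points are libraries and lines are group means. Cdkn1a was above 90 in every RA library and below 43 in every untreated one.

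Cdkn1a, which encodes p21, was higher in the RA libraries at both times, by an estimated 3.40-fold at 12 h and 3.22-fold at 72 h. Untreated replicates 1, 2 and 3 had 40.5, 42.1 and 24.6 normalised reads, the RA 12 h replicates had 117, 109 and 137, and the RA 72 h replicates had 93.8 and 139. All 5 RA libraries lay above all 3 untreated libraries, and the 72 h values bracketed those at 12 h. The group means were 35.8 ± 9.67 (SD, n = 3), 121 ± 14.5 (n = 3) and 116 ± 31.9 (n = 2). Against untreated cells the change was 1.76 ± 0.22 (log2, SE; 3.40-fold, 95% confidence interval 2.43 to 4.76) at 12 h, with a limma adjusted p of 0.000282. At 72 h it was 1.69 ± 0.25 (3.22-fold, 2.21 to 4.68), with an adjusted p of 0.000606. By size of increase Cdkn1a ranked 40 of 12673 genes tested at 12 h and 78 at 72 h. Between 72 h and 12 h the difference was -0.08 ± 0.25, with an adjusted p of 0.913 and an interval of -0.62 to 0.46. Untreated replicate 3 held the lowest Cdkn1a value; without it the changes were 1.52 at 12 h and 1.44 at 72 h, and both calls remained.

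Cdkn1b, which encodes p27, did not pass the test in any comparison. Its values were 32.6, 27.5 and 30.5 normalised reads in untreated cells, 21.5, 28.4 and 31.0 at 12 h of RA and 35.1 and 43.1 at 72 h. The 12 h range overlapped the untreated range, while both 72 h libraries lay above the other 6. The change was -0.17 ± 0.23 at 12 h (adjusted p 0.750) and 0.36 ± 0.25 at 72 h (adjusted p 0.435), and 0.53 ± 0.25 from 12 h to 72 h (adjusted p 0.281). The interval at 72 h against untreated cells, -0.19 to 0.90, holds no change and a rise of nearly 2-fold alike.

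Cdkn1c, the p57 gene, was close to the lowest value of the table, 1, in all libraries. It had 1.88, 2.50 and 1.50 normalised reads in untreated cells, 1.50, 3.13 and 3.88 at 12 h of RA and 3.38 in both 72 h libraries. Its mean over the 8 libraries, 2.64, was under the minimum of 10 for testing, so it is the 1 member of the 9 that was not tested and no direction is given for it.

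Cdkn2c, the INK4 member and the most abundant of the 4 inhibitors, passed the adjusted p at 72 h with a change under 2-fold. Its values were 595, 623 and 922 normalised reads in untreated cells, 930.1, 1029.6 and 763 at 12 h of RA and 1236 and 998 at 72 h. Untreated replicate 3 reached into the 12 h range, and both 72 h libraries lay above all untreated ones. The change was 0.37 ± 0.17 at 12 h (adjusted p 0.296) and 0.67 ± 0.19 at 72 h (1.59-fold, interval 1.20 to 2.10, adjusted p 0.0326). From 12 h to 72 h it was 0.30 ± 0.19 (adjusted p 0.425). The 72 h result depended on single libraries: its adjusted p was at or above 0.05 in 5 of the 8 fits that left one library out, and reached 0.290 without RA 72 h replicate 1, where the change was 0.51. Without untreated replicate 3 the 12 h change was 0.56, with an adjusted p of 0.0148.

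Among the D-type cyclins, which take the signal of growth factors to CDK4 and CDK6, Ccnd1 was highest with RA at 72 h. It had 4364.5, 5181 and 5097 normalised reads in untreated cells, 6355, 6034 and 5445 at 12 h of RA and 7338 and 6489 at 72 h. No 2 groups overlapped: every RA library was above every untreated one, and both 72 h libraries were above those at 12 h. The change was 0.29 ± 0.11 at 12 h (1.22-fold, adjusted p 0.192) and 0.50 ± 0.12 at 72 h (1.42-fold, interval 1.18 to 1.70, adjusted p 0.0147). From 12 h to 72 h it was 0.22 ± 0.12 (adjusted p 0.368). At 72 h the adjusted p was 0.0658 without untreated replicate 1 and 0.177 without RA 72 h replicate 1.

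Ccnd2 was the only member to pass the adjusted p downward. Untreated cells had 216, 279.9 and 306 normalised reads, cells at 12 h of RA 264, 270.4 and 245.5, and cells at 72 h 209 and 136. The 12 h values lay within the untreated range, and both 72 h values lay below the lowest of the other 6 libraries, RA 72 h replicate 1 by a few reads. The change was -0.03 ± 0.17 at 12 h (adjusted p 0.958) and -0.65 ± 0.19 at 72 h (0.638-fold, interval 0.481 to 0.847, adjusted p 0.0418). From 12 h to 72 h it was -0.62 ± 0.19 (adjusted p 0.0767). RA 72 h replicate 2 carried much of this. Without it the 72 h change against untreated cells was -0.34 (adjusted p 0.381), and without replicate 1 it was -0.95 (adjusted p 0.0151). In 6 of the 8 fits that left one library out, the adjusted p at 72 h was at or above 0.05.

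Ccnd3 did not pass the test in any comparison. It had 3297, 3265 and 4717 normalised reads in untreated cells, 3560.4, 3775 and 3223 at 12 h of RA and 4670 and 3987.5 at 72 h. Untreated replicate 3 was the highest of all 8 libraries, and the 72 h values lay above those at 12 h. The change was -0.08 ± 0.14 at 12 h (adjusted p 0.824) and 0.22 ± 0.16 at 72 h (adjusted p 0.434), and 0.30 ± 0.16 from 12 h to 72 h (adjusted p 0.338). Without untreated replicate 3 the 72 h change against untreated cells was 0.40, with an adjusted p of 0.0358.

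The E-type cyclins, which activate CDK2 at the entry into S phase, did not pass the test in any comparison. Ccne1 had 401, 431 and 586 normalised reads in untreated cells, 617, 591 and 503.5 at 12 h of RA and 623 and 480.0 at 72 h. All 3 groups overlapped. Its change was 0.29 ± 0.15 at 12 h (adjusted p 0.382), 0.23 ± 0.17 at 72 h (adjusted p 0.460) and -0.06 ± 0.17 from 12 h to 72 h (adjusted p 0.912). Without untreated replicate 3 the 12 h change was 0.45, with an adjusted p of 0.0454. Ccne2 had 184, 198 and 254 normalised reads in untreated cells, 243, 219.5 and 209.5 at 12 h of RA and 189 and 178 at 72 h. The 72 h libraries were below those at 12 h and overlapped the untreated ones. Its change was 0.09 ± 0.14 at 12 h (adjusted p 0.787), -0.19 ± 0.16 at 72 h (adjusted p 0.510) and -0.28 ± 0.16 from 12 h to 72 h (adjusted p 0.371). The 95% intervals of both genes against untreated cells, from -0.53 to 0.62 over the 2 times, stayed within 2-fold in either direction.

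**Figure D2:**
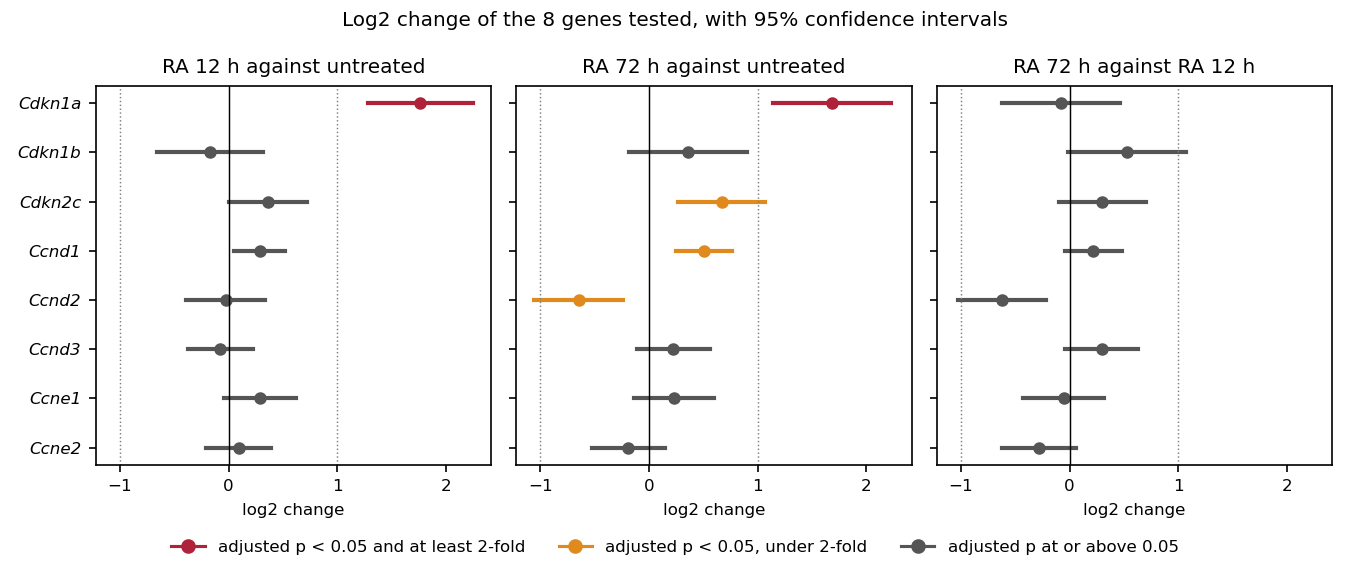
Log2 change (horizontal axis) of the 8 genes tested (vertical axis) in 3 comparisons, with 95% confidence intervals as bars and dotted lines at 2-fold. Cdkn1a stands apart at 1.76 and 1.69 against untreated cells and lies at -0.08 between the RA times.

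Read over the family, 1 of 8 members tested was called at 12 h, where 1.42% of the 12673 genes tested were called, and 1 of 8 at 72 h, where 3.67% were. Both calls were Cdkn1a, and both comparisons share the untreated libraries. Between 72 h and 12 h limma called 0 of 8, beside 1.50% of all genes, and only Ccnd2 had an unadjusted p below 0.05, as 18.9% of all genes did. With no minimum of 2-fold, 1 of 8 members passed the adjusted p at 12 h (4.37% of all genes) and 4 of 8 at 72 h (11.5%). The 4 were Cdkn1a, Cdkn2c and Ccnd1, higher as 6.08% of all genes were, and Ccnd2, lower as 5.41% were. From 12 h to 72 h 0 of 8 passed the adjusted p, beside 5.84% of all genes. The groups did not overlap for 2 of 8 members at 12 h against untreated cells (20.0% of all genes), 5 at 72 h against untreated cells (36.6%) and 5 at 72 h against 12 h (37.3%), so this count by itself says little about the members. The median change of the members was 0.19 at 12 h, 0.29 at 72 h and 0.08 between the times, beside -0.02, -0.02 and -0.00 over all genes tested. Untreated replicate 3 was the highest of the untreated libraries for 5 members (Cdkn2c, Ccnd2, Ccnd3, Ccne1 and Ccne2) and the lowest for Cdkn1a and Cdkn1c; its part in the results beyond the values given without it was not tested.

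Divided by exonic length, the members spanned over 1000-fold in untreated cells. The lower end of this span is Cdkn1c, close to the lowest value of the table and not tested, so its size is uncertain. Ccnd3 was highest with 1667 ± 368 normalised reads per exonic kb (SD, n = 3), followed by Ccnd1 with 1273 ± 117, Cdkn2c with 265 ± 67.4 and Ccne1 with 178 ± 37.3. Ccne2 had 60.6 ± 10.6 and Ccnd2 46.9 ± 8.12, and these neighbours overlapped. Cdkn1a followed with 16.1 ± 4.35, Cdkn1b with 6.64 ± 0.566 and Cdkn1c with 1.01 ± 0.262. Cdkn2c and Ccne1 were separated only narrowly, the lowest library of the former at 221 and the highest of the latter at 220.1 per kb; no other neighbours overlapped. Without division by length part of the order turned: in normalised reads per gene Ccnd1 (4881 ± 449) was above Ccnd3 (3759 ± 829) and Ccnd2 (267 ± 46.3) above Ccne2 (212 ± 37.0) in all 3 untreated libraries, both with overlapping ranges, and Cdkn1a (35.8 ± 9.67) overlapped Cdkn1b (30.2 ± 2.57). If the libraries hold tags at one site per transcript, as the labels describe, rather than fragments along it, as the methods do, division by length does not apply.

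Cdkn1a made up more of the Cip/Kip RNA with RA, with or without division by length. Per exonic kb its share of the summed level of the 3 Cip/Kip genes was 69.1, 72.1 and 59.7% in the untreated replicates, 90.5, 86.2 and 87.5% at 12 h of RA and 81.7 and 84.8% at 72 h. Without division it was 43.5 to 58.4%, 77.6 to 83.6% and 70.9 to 74.9%, and in untreated replicate 3 Cdkn1b was the higher of the pair. The summed Cip/Kip level went from 18.6 to 26.4 normalised reads per exonic kb over the untreated libraries, 57.1 to 70.6 over those at 12 h and 51.6 to 73.7 over those at 72 h. Both measures rest on the rise of Cdkn1a itself and carry no test of their own. Within the D-type cyclins, per kb, Ccnd1 and Ccnd3 made up nearly all RNA: Ccnd1 had 38.3 to 47.4% in untreated cells, 47.8 to 50.5% at 12 h and 47.6 to 48.6% at 72 h. Ccnd2 had 1.44 to 1.72%, 1.41 to 1.49% and, at 72 h, 0.911 and 0.685%, so its share at 72 h was below that of all other libraries, as it was without division (1.71 and 1.28%, beside 2.59% or more). The summed D-type level was 2638 to 3474 per kb in untreated cells, 2892 to 3295 at 12 h and 3484 to 4021 at 72 h. Ccne1 had 74.1 to 75.2% of the E-type RNA in untreated cells, 75.9 to 78.0% at 12 h and 78.0 to 81.2% at 72 h.

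**Figure D3:**
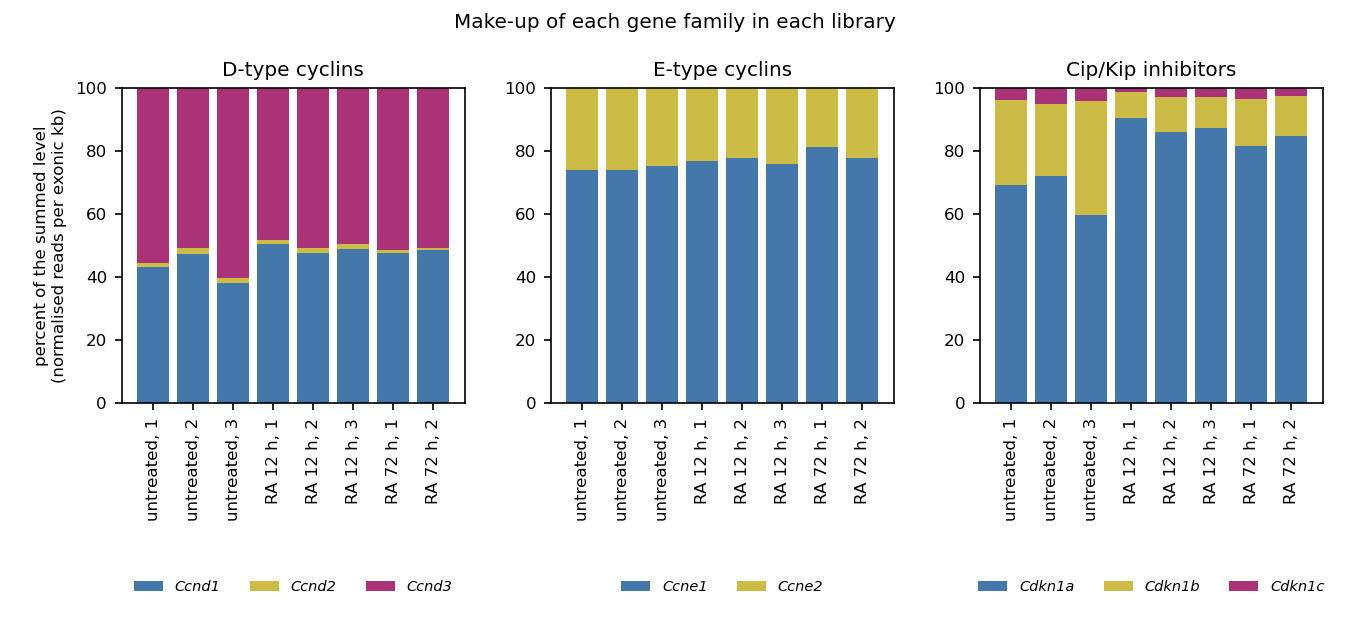
Share of each gene (vertical axis, percent) in the summed normalised reads per exonic kb of its family, one bar per library (horizontal axis), with no error shown. Cdkn1a held 59.7 to 72.1% of the Cip/Kip level in untreated libraries and 81.7 to 90.5% in RA libraries.

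The genes whose log2 values followed Cdkn1a most closely over the 8 libraries, among 12672 compared, were Pdgfrl (Pearson's r 0.987), Gsr (0.985) and Tex15 (0.984). Gsr encodes glutathione reductase and Tex15 a protein known from the testis, while Pdgfrl encodes a protein like the platelet-derived growth factor receptor. Gsr had 1934 to 2475 normalised reads in untreated cells and 4852 to 5433 with RA, and was called at both times against untreated cells (1.19 and 1.18). Tex15 was called as well (1.47 and 1.23), and Pdgfrl had 0.84 at both times, under 2-fold. The correlation is a description over libraries that fall into groups, and any gene that differs between untreated and RA cells with little spread scores high on it.

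The other genes of the G1 to S step gave few calls, as did all genes tested. Over all genes 1.42%, 3.67% and 1.50% were called in the 3 comparisons, so the counts of calls by themselves say little about these lists. None of the 19 tested kinases, pocket proteins and E2F factors was called in any comparison by limma, with an unadjusted p below 0.05 for 1 gene at 12 h, 2 at 72 h and 2 between the times. Over all genes tested 16.3%, 23.9% and 18.9% had such a p in the 3 comparisons, and the counts below are to be read beside these shares. Ccna2, the S-phase cyclin, had 0.95 at 72 h (adjusted p 8.25e-05) and Cdk7 -0.38 (adjusted p 0.0424). Of 12 genes for the turnover of cyclins and inhibitors 0 were called, with 0, 3 and 4 at an unadjusted p below 0.05. At 72 h against untreated cells 3 turnover genes passed the adjusted p higher, beside 6.08% of all genes, and 0 lower. These were Cks1b (0.85), Fzr1 (0.53) and Cul4a (0.36), named like Ccna2 and Cdk7 after their values were seen. Of 20 E2F target genes 0 were called, with 1, 5 and 7 at an unadjusted p below 0.05, and their medians were 0.01, 0.05 and 0.05. At 72 h against untreated cells 3 of them passed the adjusted p higher, beside 6.08% of all genes, and 0 lower. These were Tk1 (0.83), Tyms (0.53) and Rrm2 (0.48), also named after their values were seen. Of 3 further CDK inhibitors tested (Cdkn2a, Cdkn2b and Cdkn3), 1, 2 and 1 had an unadjusted p below 0.05 in the 3 comparisons. Cdkn3, a phosphatase that acts on CDKs, was called at 72 h against 12 h with 1.04 ± 0.17 (adjusted p 0.00260). Leaving out single libraries gave it 0.90 to 1.18, under 2-fold at the lowest. At 72 h against untreated cells it passed with 0.84 ± 0.17 (adjusted p 0.00515), under 2-fold. Cdkn2a and Cdkn2b did not pass the adjusted p in any comparison.

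Other p53 target genes, a list to which Cdkn1a belongs by function and which was counted without it, did not move in one direction. At 12 h 0 of 19 tested were called, beside 1.42% of all genes, and 7 had an unadjusted p below 0.05, beside 16.3%. The adjusted p was passed by 4.37% of all genes. Here Gadd45a (0.89), Perp (0.73) and Ddit4 (0.70) passed it higher and Fas (-0.86) lower, named after their values were seen. At 72 h against untreated cells 9 of 19 had an unadjusted p below 0.05, beside 23.9% of all genes. The adjusted p was passed by 3 higher and 3 lower, beside 6.08% and 5.41% of all genes. Called were 1 higher and 1 lower, beside 3.67% of all genes in either direction. Perp, a membrane protein of cell contacts, was called higher with 1.05 ± 0.15 (adjusted p 0.000515), and Plk3, a stress-responsive kinase, lower with -1.26 ± 0.33 (adjusted p 0.0229). Perp was at 0.99, below 2-fold, without untreated replicate 2, and Plk3 had adjusted p-values of 0.0744 to 0.147 without untreated replicate 1 or 2 or either RA 72 h replicate. The median of the 19 was -0.00 at 12 h and -0.08 at 72 h, beside -0.02 over all genes at both times.

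The proliferation markers, a list mainly of mitotic genes, differed between the RA times. Replication genes such as Pcna and Mcm2 were in the E2F list instead. At 72 h against untreated cells 12 of the 20 genes in that list had a positive change, with a median of 0.05. Pcna had -0.20 and Mcm2 -0.31, neither past the adjusted p. At 12 h 0 of 12 proliferation markers were called, with a median of -0.05 and an unadjusted p below 0.05 for 1. Over all genes tested, 6.08% passed the adjusted p higher at 72 h against untreated cells, and 3.67% were called in either direction. Between the RA times 5.84% passed and 1.50% were called, in either direction. At 72 h against untreated cells 11 of 12 passed the adjusted p higher, with a median of 0.80, and 3 were called: Cdc20 (1.60 ± 0.30), an activator of the anaphase-promoting complex, Ccnb2 (1.12 ± 0.15), a mitotic cyclin, and Bub1 (1.02 ± 0.12), a spindle checkpoint kinase. Each of these calls was lost without some library: Cdc20 without RA 72 h replicate 2 (adjusted p 0.0531), and Ccnb2 and Bub1 because their log2 change came under 1, though both kept an adjusted p below 0.05. Ccnb2 had a log2 change of 0.96 without untreated replicate 3, and Bub1 one of 0.94 without untreated replicate 1 and of 0.96 without RA 72 h replicate 2. At 72 h against 12 h all 12 passed higher, with a median of 0.85, and Cdc20, Plk1 and Aurka were called, though without RA 72 h replicate 2 none of the 3 was (adjusted p 0.0704 to 0.297).

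**Figure D4:**
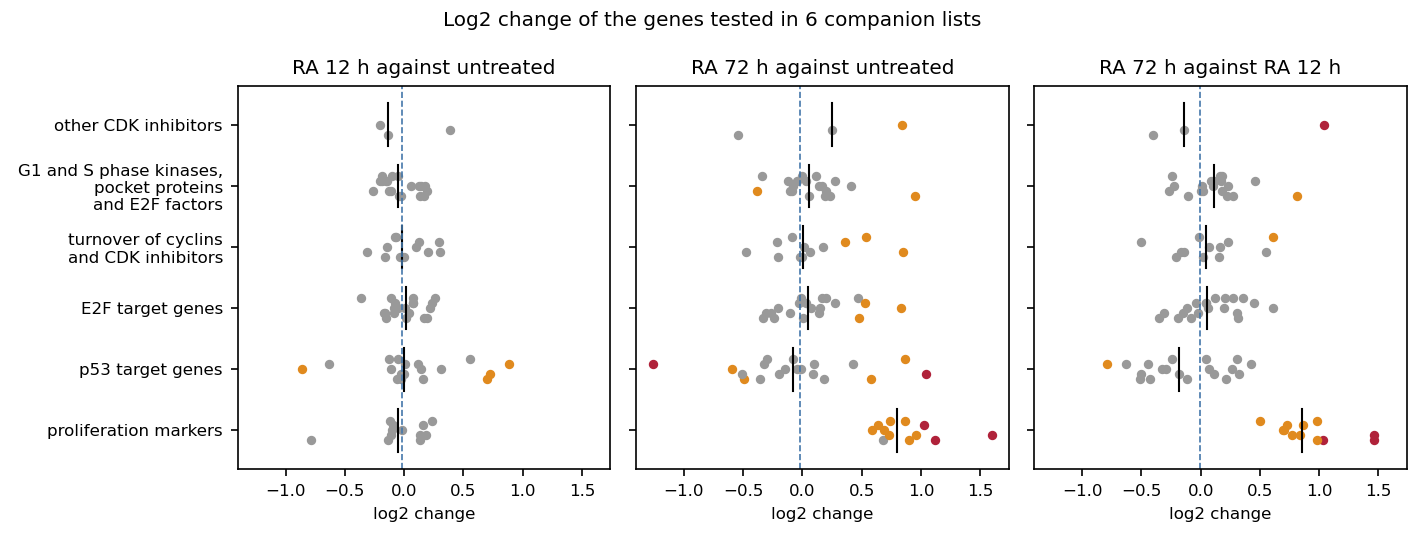
Log2 change (horizontal axis) of the genes tested in 6 companion lists (vertical axis); red points were called, orange points passed the adjusted p with less than 2-fold and grey points did not pass, black bars are list medians and the dashed line is the median of all genes tested. Against untreated cells the 12 proliferation markers have a median of -0.05 after 12 h of RA and of 0.80 after 72 h.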

How the data were processed

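Polyadenylated RNA of 8 libraries was sequenced; per the labels these are DpnII tag libraries, whereas the study's methods describe fragmented RNA, alignment to mm9 with Tophat, counting with Cufflinks on Ensembl models and normalisation with DESeq. The methods also give a later time other than 72 h; the labels were followed. The authors deposited a score per gene: normalised reads with decimal commas; 1 line without a gene was left out. Sorted values were identical in all 8 columns, so the authors had quantile normalised them, and count tests do not apply. Group log2 ratios in the same file, deposited by the authors, were not used. Here log2(value + 1) was fitted with limma 3.58.1 (R 4.3.3), 3 groups in one model with a variance trend, over 12673 genes with a mean of at least 10. P-values are two-sided and Benjamini-Hochberg adjusted over all genes tested in a comparison. The fit was first tested on simulated data with independent spread for each gene. That simulation lacks the axis within groups shared by these libraries, so it does not check the fit under it. Nothing states that replicates were separate cultures, so p-values measure the spread between these libraries, which may be technical. Of the identifiers 96.7% were in the annotation; promoters came from RefSeq (GRCm38.p6). Members, lists and tests were chosen with earlier results of these data known. Named genes were all members, the called genes of each companion list (at most 5), the 3 genes most like a called member, and Taf4a; further list and marker genes were named after their values were seen. Alternatives changed the pseudocount, filter, scaling, thresholds, variance model, weights, covariates and libraries.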

Additional observations from a re-analysis of the deposited data

Results flagged for a closer look

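Cdkn3, the CDK-associated phosphatase gene, was higher at 72 h than at 12 h of RA by 1.04 (log2), and the difference between the 2 times was itself tested. It had 301 and 364 normalised reads at 72 h and 133 to 176.5 at 12 h. The adjusted p was 0.0549 without RA 72 h replicate 2, and without RA 12 h replicate 1 the log2 change was 0.91, under 2-fold.

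The mitotic genes Cdc20 (1.47), Plk1 (1.46) and Aurka (1.03) were flagged by the same contrast of the RA times. Cdc20 lost its call without RA 12 h replicate 1 (adjusted p 0.0503) or RA 72 h replicate 2 (adjusted p 0.146). Aurka lost it without RA 12 h replicate 1, where the log2 change of 0.97 was under 2-fold, or RA 72 h replicate 2, with a log2 change of 0.87 and an adjusted p of 0.0704. Plk1 lost it without RA 12 h replicate 2 or 3 or either RA 72 h replicate (adjusted p 0.0730 to 0.297). No cyclin D, cyclin E or inhibitor gene of the family passed this contrast, and groups of 2 and 3 libraries cannot be searched for outliers.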

How the results depend on the processing

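The members called numbered 1, 1 and 0 (RA 12 h and 72 h against untreated cells, and 72 h against 12 h) in all alternatives, except 4 at 72 h with no fold minimum. Cdkn1a kept both calls in all 16 alternative fits, with changes of 1.52 to 1.90 at 12 h and 1.40 to 1.97 at 72 h. Past the adjusted p at 72 h were Ccnd1 in 12 of these fits, Cdkn2c in 8 and Ccnd2 in 6, without a change of direction. Changes of direction were seen only among members that did not pass: with library weights Ccnd2 (0.18) and Ccnd3 (0.084) at 12 h, and leaving out single libraries Ccnd2 (-0.17 to 0.078), Ccnd3 (-0.17 to 0.10) and Ccne2 (-0.00426 to 0.23) at 12 h and Ccne1 (-0.24 to 0.13) and Cdkn1a (-0.36 to 0.20) between the RA times. The causes were not tested. Over all genes, calls moved to 297 at 72 h with a minimum mean of 50, 354 at 12 h with weights, 554, 1456 and 740 with no fold minimum, and 59, 165 and 41 at 3-fold; leaving out a library gave 148 to 322 at 12 h, the highest without untreated replicate 3. Whether replicate numbers pair the libraries is not known. Correlations of deviations from the group means were -0.474 to 0.420 for same-numbered pairs and -0.509 to 0.509 for the others. The 2 libraries at 72 h deviate from their mean by equal and opposite amounts, so these correlations cannot decide it. With replicate numbers as a block the calls of members stayed at 1, 1 and 0. In that fit Cdkn2c (0.71, adjusted p 0.0678), Ccnd1 (0.49, 0.0630) and Ccnd2 (-0.62, 0.124) no longer passed at 72 h. Fits with a single 72 h library assume that it varies like the other groups. The unknown depth limits what can be said of Cdkn1c and other low genes.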
